A study of Mus musculus with 2 samples.

Results

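The 10 genes described here encode ligands of the transforming growth factor-β (TGF-β) family (Tgfb1, Tgfb2, Tgfb3 and the activin subunit gene Inhba), the TGF-β receptors (Tgfbr1 and Tgfbr2), signal-carrying and inhibitory SMAD proteins (Smad2, Smad3 and Smad7) and Tgfbi, a matrix protein named for its induction by TGF-β. Each probe set whose platform annotation gave exactly 1 of these gene symbols was taken, which gave 26 probe sets of 10 genes among 18093 genes on the array. The arrays came from peritoneal macrophages of C57BL/6J mice, harvested 3 days after thioglycolate had been injected to recruit macrophages to the peritoneum. One array held cells treated with LPS+CPN+GGOH and the other cells treated with LPS+CPN. Both cultures thus received LPS (lipopolysaccharide, a bacterial activator of macrophages) and the compound that the labels name only as CPN, and they differed in GGOH, geranylgeraniol, an isoprenoid alcohol. Doses, treatment times, the number of animals behind each culture, and arrays of untreated or LPS-only cells are not part of the material used here. The question was how adding GGOH to LPS+CPN changes gene expression.

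TGF-β ligands are secreted as latent complexes and, once released, bind the type II receptor TGFBR2, which recruits and phosphorylates the type I receptor TGFBR1. The activated receptor phosphorylates SMAD2 and SMAD3, which join SMAD4 and enter the nucleus, and SMAD7 is a feedback inhibitor whose gene is itself a target of the pathway. Activin A, a dimer of the Inhba product, uses its own receptors but the same SMAD2 and SMAD3, and in macrophages TGF-β is known for restraining inflammatory activation, while activin A is made in response to LPS.

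With 1 array per group there was no test, standard error or p-value, and every difference describes these 2 arrays. Signals at or below 59.9, the median of all non-control signals, were set to that floor, so a gene at the floor on 1 array has only a lower bound on its fold. Each gene took the value of its brightest probe set outside the _x_at class, whose probes can bind other transcripts. Probe sets of 1 gene, where above the floor on both arrays, gave log2 ratios with a pooled SD of 0.45. This SD serves as a yardstick of the spread between probe sets only. It holds no variation between arrays, cultures or animals, so a ratio beyond it is not shown to exceed such variation.

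Markers of other cell types differed between the arrays. Of the fibroblast markers, 7 of 8 measured genes were at least 2-fold higher with LPS+CPN+GGOH (summed signal 28460 with LPS+CPN+GGOH and 1344 with LPS+CPN), and of the mesothelial markers 7 of 9 (2543 with LPS+CPN+GGOH and 312 with LPS+CPN). With LPS+CPN+GGOH 1 of 9 fibroblast and 0 of 9 mesothelial markers were at the floor, against 6 and 8 with LPS+CPN. The 11 macrophage markers on the array were above the floor in both cultures. Their signals summed to 146908 with LPS+CPN+GGOH and 159427 with LPS+CPN. Their log2 ratios had a median of -0.16 and ranged from -0.73 to 1.05, with 1 gene (Itgam) at least 2-fold higher with LPS+CPN+GGOH and 0 lower. The T cell, B cell, eosinophil and mast cell markers were at the floor on both arrays. Of 4 platelet markers 3 were measured, of which Gp9 was at least 2-fold lower with LPS+CPN+GGOH. The 1 neutrophil marker measured, S100a8, was lower with LPS+CPN+GGOH and just under 2-fold (log2 ratio -0.95). The 1 endothelial marker measured, Kdr, had a log2 ratio of -0.03. The 3′ over 5′ signal ratio, a measure of RNA integrity, was 1.24 with LPS+CPN+GGOH and 2.44 with LPS+CPN for Actb, and 0.956 with LPS+CPN+GGOH and 1.98 with LPS+CPN for Gapdh. The part of these differences in the results below was not tested, and in such bulk samples fewer cells of a type and less RNA per cell cannot be told apart.

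Among the 10 genes, Smad7, Tgfb3 and Tgfb2 were at least 2-fold higher with GGOH and none was at least 2-fold lower. Across all 11518 measured genes, 5.50% passed 2-fold in the higher direction and 1.66% in the lower. Tgfbi and Smad3 lay just under 2-fold, Tgfbr2 was 1.48-fold higher, and the values of Tgfb1, Inhba, Smad2 and Tgfbr1 lay within 0.45 of 0 on the log2 scale. The median log2 ratio was 0.73 over the 10 genes, with the 2 bounds taken at their bound, against -0.01 over all measured genes. Of the 26 probe sets 14 were above the floor on both arrays, 5 on 1 array and 7 on neither. Of the 19 measured probe sets, 15 had a log2 ratio above 0 and 4 below 0. The 5 measured on 1 array were all above the floor with LPS+CPN+GGOH only, so their ratios had to lie above 0. The floor of 59.9 lay between the array medians, 63.7 with LPS+CPN+GGOH and 56.7 with LPS+CPN. Readings in general were thus below it more often with LPS+CPN. Of the 11518 measured genes, 9909 were above the floor on both arrays, and the rest were not split by array.

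**Figure D1:**
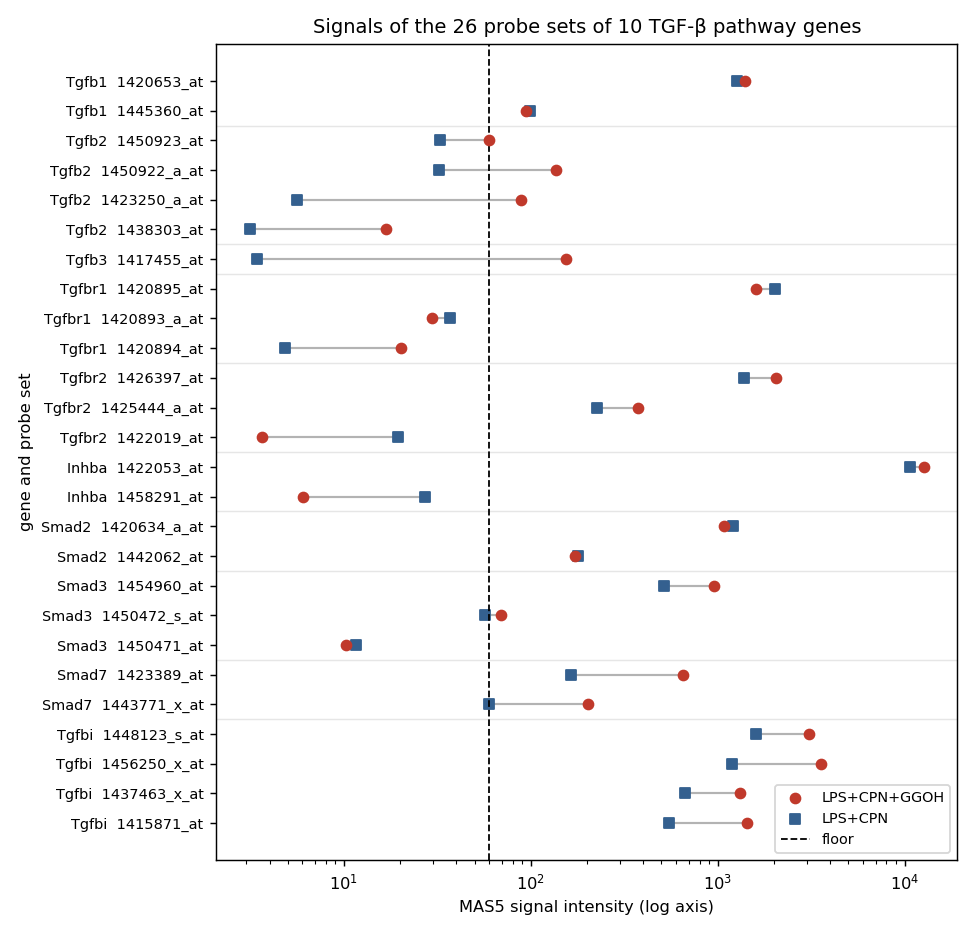
Signal intensity (log axis) of each of the 26 probe sets, with circles for LPS+CPN+GGOH and squares for LPS+CPN; the dashed line is the floor of 59.9. Pairs of Tgfb1, Smad2 and the bright Inhba probe set nearly coincide, Smad7 and all Tgfbi pairs are apart with LPS+CPN+GGOH on the right, and Tgfb2 and Tgfb3 lie below the floor with LPS+CPN.

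Among the 3 TGF-β ligand genes, Tgfb1 stood apart from Tgfb2 and Tgfb3, which were both below the floor with LPS+CPN. Promoter sequences of RefSeq, build GRCm38.p6, were on hand for 7 of the 10 genes (not for Tgfb3, Smad2 and Smad7). Those of Tgfb2, which was above the floor only with GGOH, and Tgfb1, whose signals were close on both arrays, are shown because these ligands of one receptor pair gave the contrast. Each is the 250 bases before the annotated start site, 5′ to 3′ on the gene's strand, Tgfb2 from chr1:186705990-186706239 (minus strand) and Tgfb1 from chr7:25686752-25687001 (plus strand); capitals mark the motif matches described next.
Tgfb2: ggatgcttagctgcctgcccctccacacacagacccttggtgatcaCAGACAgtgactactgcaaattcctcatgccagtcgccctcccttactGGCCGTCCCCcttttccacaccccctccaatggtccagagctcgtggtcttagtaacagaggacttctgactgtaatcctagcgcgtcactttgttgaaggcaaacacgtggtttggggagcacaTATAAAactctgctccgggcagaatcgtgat
Tgfb1: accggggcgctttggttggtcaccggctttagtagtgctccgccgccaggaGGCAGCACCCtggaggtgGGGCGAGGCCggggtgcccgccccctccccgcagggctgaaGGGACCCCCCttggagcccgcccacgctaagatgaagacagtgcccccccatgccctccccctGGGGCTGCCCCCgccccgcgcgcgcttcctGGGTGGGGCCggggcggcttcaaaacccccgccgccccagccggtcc
The Tgfb2 window had a GC content of 53.6% and 8 CpG dinucleotides, the Tgfb1 window 75.2% and 21, and the median GC content of 32851 promoter windows was 52.4%. Letters were searched on both strands. The CAGA box (CAGACA), to which SMAD3 and SMAD4 can bind, was present in the Tgfb2 window, at -204 to -199 from the start site, and in 1 of the 2 Tgfbr1 windows, and in 17.1% of all windows. A TATAAA match, the letters of a TATA box, stood at -31 to -26 in Tgfb2 and at -91 to -86 in Inhba, and in 12.4% of all windows; this motif was added after the sequences were seen. A loose NF-kB motif, GGG and CC with any 5 bases between them, matched in 45.8% of all windows, and in those of Tgfb2, Tgfb1, Inhba and Tgfbi. In Tgfb1 it matched at 7 positions, 3 of them overlapping each other, and matches of different motifs did not overlap. The SMAD palindrome GTCTAGAC (0.167% of all windows), the AP-1 site TGANTCA (6.75%), the CRE TGACGTCA (1.55%) and the TEAD motif GGAATG (12.6%) were not found in the 8 windows of the 7 genes. A match is a description of letters, not evidence of a binding site.

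Tgfb1, the main TGF-β isoform of leukocytes, had a signal of 1398 with LPS+CPN+GGOH and 1268 with LPS+CPN, a log2 ratio of 0.14. Its dimmer probe set read 94.5 with LPS+CPN+GGOH and 98.6 with LPS+CPN (log2 ratio -0.06). Both Tgfb1 ratios were small beside the SD of 0.45, and no direction is given, since dividing the arrays by their medians gave the gene a log2 ratio of -0.03.

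Tgfb2, an isoform known for its roles in development and in stromal and epithelial cells, had a signal of 137 with LPS+CPN+GGOH and 32.4 with LPS+CPN, which was below the floor. It was therefore at least 2.29-fold higher with GGOH. Another probe set, at 89.2 with LPS+CPN+GGOH and 5.62 with LPS+CPN, was at least 1.49-fold higher. The other 2 Tgfb2 probe sets were below the floor on both arrays, the brighter of them only narrowly with LPS+CPN+GGOH, at 59.8, against 32.7 with LPS+CPN. All 4 pairs had the larger reading with GGOH, but the signals were low. The median over the measured probe sets gave Tgfb2 a log2 ratio of 0.88, short of 2-fold.

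Tgfb3, an isoform known from palate formation and wound repair, was read by 1 probe set, with a signal of 155 with LPS+CPN+GGOH and 3.41 with LPS+CPN. The LPS+CPN reading was below the floor, so Tgfb3 was at least 2.58-fold higher with GGOH, with no other probe set to set beside it. Both Tgfb2 and Tgfb3 thus had a measurable signal only on the array where fibroblast and mesothelial markers were also higher; which cells carried the ligand signals was not tested.

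Inhba, which encodes the βA subunit shared by activins and inhibin, had a signal of 12674 with LPS+CPN+GGOH and 10669 with LPS+CPN. Its log2 ratio of 0.25 was below the probe set SD of 0.45. The other Inhba probe set was below the floor on both arrays, with 6.04 with LPS+CPN+GGOH and 27.2 with LPS+CPN.

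The receptor genes lay on opposite sides of 0, both under 2-fold. Tgfbr2, the ligand-binding type II receptor, had a signal of 2050 with LPS+CPN+GGOH and 1388 with LPS+CPN, a log2 ratio of 0.56. Its other measured probe set read 373 with LPS+CPN+GGOH and 226 with LPS+CPN, a log2 ratio of 0.72. Both ratios exceeded 0.45, and 10.1% of the genes measured on both arrays had a higher ratio than that of the Tgfbr2 gene value. Tgfbr1, the type I receptor kinase, had a signal of 1612 with LPS+CPN+GGOH and 2017 with LPS+CPN, a log2 ratio of -0.32, nearer to 0 than the probe set SD. The other 2 Tgfbr1 probe sets were below the floor on both arrays. Under the 9 other settings tried, the ratio ranged from 0.40 to 0.72 for Tgfbr2 and from -0.49 to -0.16 for Tgfbr1. Several settings could not change it: a lower or higher floor and keeping _x_at probe sets returned the same values. With 1 measured probe set, the median over probe sets could not change Tgfbr1 either. The kept signs are therefore no independent support.

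**Figure D2:**
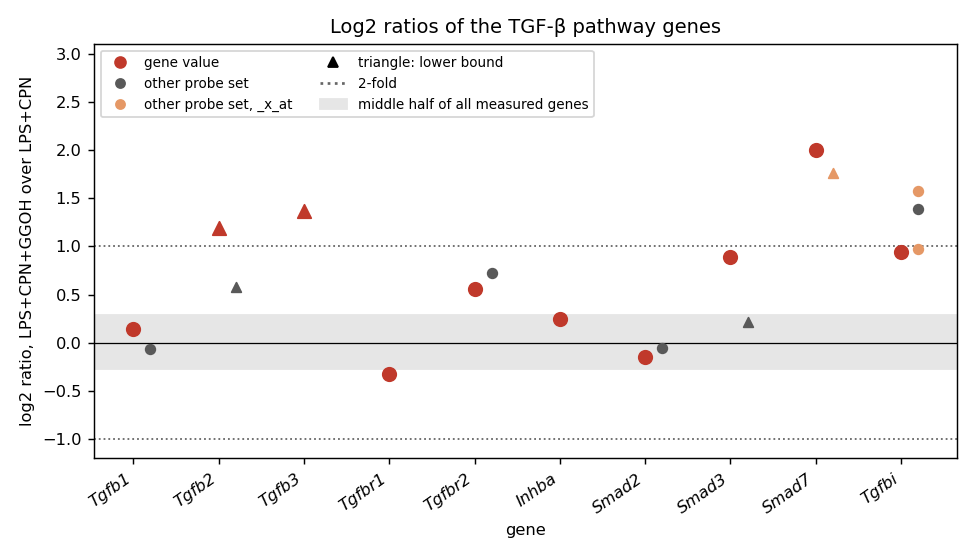
Log2 ratio of LPS+CPN+GGOH over LPS+CPN for each measured probe set of the 10 genes; large red symbols are the gene values, grey and orange symbols the other probe sets, triangles lower bounds, dotted lines 2-fold, and the grey band spans the quartiles of all measured genes (-0.28 to 0.29). Smad7 (2.004), Tgfb3 (at least 1.37) and Tgfb2 (at least 1.19) lie above the 2-fold line.

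The SMAD genes differed from each other. Smad7, which encodes the inhibitory SMAD that blocks receptor signalling and recruits ubiquitin ligases to the receptors, had a signal of 655 with LPS+CPN+GGOH and 163 with LPS+CPN. It was 4.01-fold higher with GGOH (log2 ratio 2.004), and 0.807% of the genes measured on both arrays had a higher ratio. A second Smad7 probe set, of the _x_at class and left out of the gene value, read 203 with LPS+CPN+GGOH and 59.6 with LPS+CPN, just below the floor, which made it at least 3.40-fold higher. The Smad7 readings were thus higher with GGOH on both probe sets. Both log2 ratios exceeded the probe set SD, which does not cover variation between cultures. With the floor at the 75th percentile, a signal of 376, the log2 ratio of Smad7 was at least 0.80, because its LPS+CPN signal was then at the floor.

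Smad3, a receptor-activated SMAD that binds DNA directly, had a signal of 955 with LPS+CPN+GGOH and 516 with LPS+CPN. It was 1.85-fold higher with GGOH (log2 ratio 0.89), and 4.26% of the genes measured on both arrays had a higher ratio. A second Smad3 probe set lay near the floor, with 69.7 with LPS+CPN+GGOH and 57.1 with LPS+CPN, which allowed a bound of at least 1.16-fold, and the last was below the floor on both arrays. The median over the measured Smad3 probe sets was 0.55. Smad2, the other receptor-activated SMAD of the pathway, had a signal of 1082 with LPS+CPN+GGOH and 1202 with LPS+CPN (log2 ratio -0.15). Its other probe set read 172 with LPS+CPN+GGOH and 179 with LPS+CPN (log2 ratio -0.06). Neither Smad2 ratio reached that SD, and the gene value was 0.01 after scaling to equal macrophage markers, which sets the median log2 ratio of those markers to 0.

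Tgfbi, which encodes a secreted matrix protein that binds integrins and collagens, was higher with GGOH on all 4 of its probe sets. The probe set that gave the gene value had a signal of 3094 with LPS+CPN+GGOH and 1607 with LPS+CPN, 1.93-fold higher (log2 ratio 0.94). Another outside the _x_at class read 1440 with LPS+CPN+GGOH and 551 with LPS+CPN, 2.61-fold higher. The 2 of the _x_at class read 3555 and 1310 with LPS+CPN+GGOH, against 1190 and 666 with LPS+CPN, and were 2.99-fold and 1.97-fold higher. The 4 log2 ratios of Tgfbi, from 0.94 to 1.58, were all over 0.45, and 2-fold fell within their range. Of the genes measured on both arrays, 3.75% had a higher ratio than that of the Tgfbi gene value. The median over the probe sets outside the _x_at class put Tgfbi at a log2 ratio of 1.17.

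**Figure D3:**
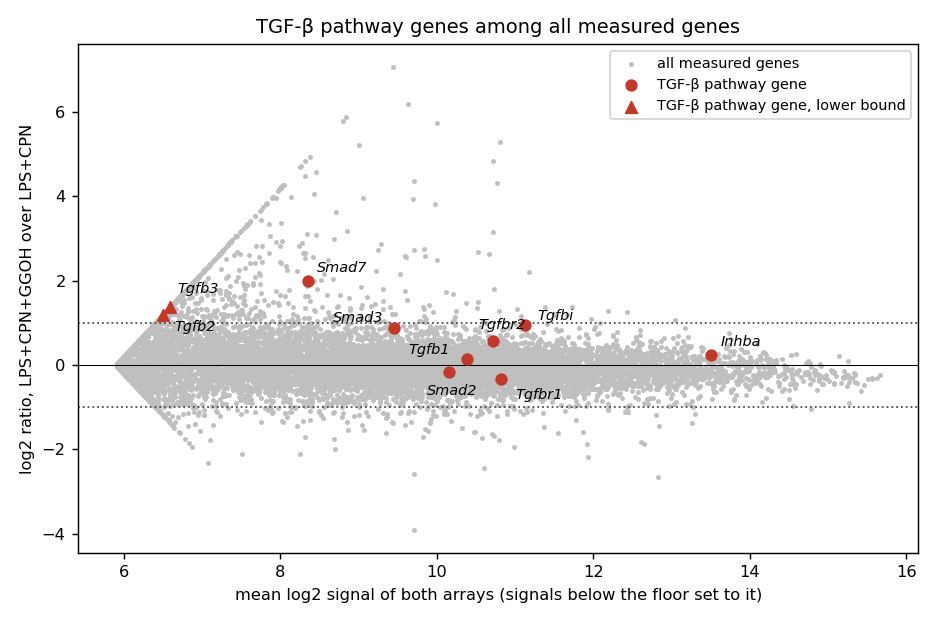
Log2 ratio of LPS+CPN+GGOH over LPS+CPN against mean log2 signal for the 11518 measured genes (grey), with the 10 genes in red (triangles are lower bounds) and dotted lines at 2-fold. Tgfb2 and Tgfb3 lie on the edge set by the floor, Smad7 lies at 2.004, and Tgfb1, Smad2, Tgfbr1 and Inhba lie near 0.

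The scaling of the arrays set part of this picture. Against the deposited values, the median over all measured genes shifted by -0.16 when each array was divided by its median and by 0.15 under equal macrophage markers. Higher genes were 76.8% of all genes at least 2-fold apart with the deposited values, 61.4% after division by the medians, 62.1% after quantile normalization and 87.8% under equal macrophage markers. Smad7, Tgfb2 and Tgfb3 stayed at least 2-fold higher under these 3 scalings and a lowess correction, and none of the 10 genes was 2-fold lower. Under equal macrophage markers Tgfbi (1.11) and Smad3 (1.05) also passed 2-fold.

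**Figure D4:**
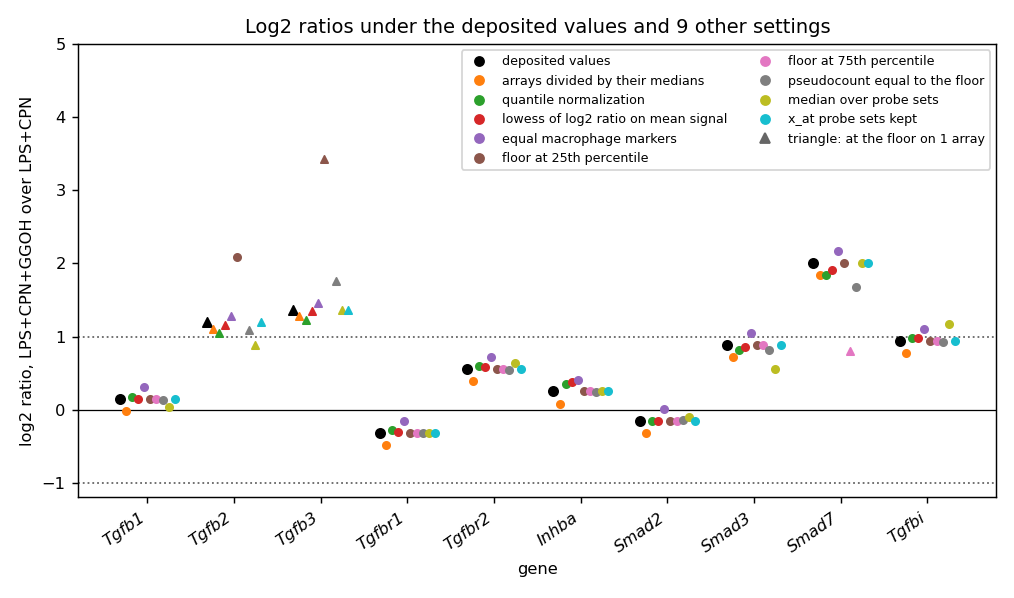
Log2 ratio of LPS+CPN+GGOH over LPS+CPN for the 10 genes with the deposited values (black) and 9 other settings (colours); triangles mark a gene at the floor on 1 array and dotted lines mark 2-fold. Smad7 stays between 1.68 and 2.17 except at the 75th-percentile floor (0.80), and Tgfb3 has its highest bound (3.43) at the 25th-percentile floor.

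The other genes of the pathway were taken from 8 lists, chosen with earlier results of these data known. Each gene counted once, 70 of 92 were measured. At 2-fold or more, 19 of the 70 were higher with GGOH and 0 lower, against 5.50% and 1.66% of all measured genes. Without the fibroblast markers among them the count was 15 of 66. Other genes that fibroblasts or mesothelial cells may express were not taken out. Of the 19 higher genes, 8 had no LPS+CPN signal above the floor and so only a bound.

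On the list for ligand latency and activation, 3 of 9 measured genes were at least 2-fold higher (median log2 ratio 0.25), against 5.50% of all measured genes. Ltbp3 (log2 ratio -0.08) and Ltbp4 (-0.04) were close on both arrays. Ltbp2, a latent TGF-β binding protein family member, had a signal of 640 with LPS+CPN+GGOH and 38.0 with LPS+CPN, at least 10.7-fold higher. Ltbp1, which tethers latent TGF-β to the matrix, was at least 3.47-fold higher, with 208 with LPS+CPN+GGOH and 9.41 with LPS+CPN. Ltbp2 and Ltbp1 were above the floor with LPS+CPN+GGOH only, so their ratios had to lie above 0. Thbs1, whose product thrombospondin can activate latent TGF-β, had 4045 with LPS+CPN+GGOH and 655 with LPS+CPN, 6.17-fold higher. Nrros, a leukocyte gene whose product anchors latent TGF-β on myeloid cells, had a log2 ratio of 0.25 (5022 with LPS+CPN+GGOH and 4221 with LPS+CPN).

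Of the other receptors, 4 of 10 measured genes were at least 2-fold higher (median 0.11), against 5.50% of all measured genes. The co-receptor gene Tgfbr3 (betaglycan), which presents TGF-β to the type II receptor, had 380 with LPS+CPN+GGOH and 3.66 with LPS+CPN, at least 6.35-fold higher. The bone morphogenetic protein (BMP) receptor gene Bmpr1a had 417 with LPS+CPN+GGOH and 83.8 with LPS+CPN, 4.97-fold higher. That was the value of 1 Bmpr1a probe set, and the median over its measured probe sets was a log2 ratio of 0.92, short of 2-fold. The type I receptor genes Acvr1 (log2 ratio 1.12) and Acvrl1 (1.05) were just past 2-fold, and neither was after division by the medians or quantile normalization. With a pseudocount in place of the floor Acvr1 (0.99) and Acvrl1 (0.95) were short of 2-fold too. With the median over probe sets Acvr1 (0.86) and Acvrl1 (0.62) also fell short. Tgfbr3 had only 1 measured probe set, so that setting could not change its value. Its other probe set was below the floor on both arrays, at 26.2 with LPS+CPN+GGOH and 26.3 with LPS+CPN. At the 75th-percentile floor the Tgfbr3 log2 ratio was at least 0.02. Among the other SMADs 1 of 4 measured genes passed 2-fold higher, against 5.50% of all measured genes. This was Smad6, the inhibitory SMAD of the BMP branch, with 279 with LPS+CPN+GGOH and 128 with LPS+CPN (log2 ratio 1.13). Smad6 was no longer past 2-fold after median division, quantile normalization or lowess, with a pseudocount in place of the floor, or at the 75th-percentile floor. Smad4, the shared partner of the receptor-activated SMADs, had a log2 ratio of -0.08.

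Of 10 measured ligand genes elsewhere in the superfamily 0 reached 2-fold in either direction (median 0.26), but 6 had only a bound, so their true ratios may be larger. In the lower direction 1 passed after division by the medians and 2 after quantile normalization, while at the 25th-percentile floor 3 were higher and 3 lower. Among those measured on both arrays, Bmp2 had a log2 ratio of -0.88 and Gdf3 one of 0.82. None of 10 intracellular antagonists passed it either (median 0.27), while 3 were higher under equal macrophage markers. Ldlrad4, which keeps SMADs from the receptor, had a log2 ratio of 0.95, and Pmepa1, another inhibitor that TGF-β induces, had one of 0.88. Of the secreted antagonists 3 of 8 on the array were measured, and Dcn (decorin), also a fibroblast marker, was 8.93-fold higher. None of 5 genes of the TAK1 branch, which carries TGF-β signals to MAP kinases, passed 2-fold (median -0.19), with Traf6 at -0.52 and Tab2 at -0.38.

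SMAD-responsive genes were the list with the largest count, 12 of 24 measured genes at least 2-fold higher with GGOH (median 1.003), of which 6 had only a bound. Of these, 3 were collagen genes that also stood among the fibroblast markers. Without them the count was 9 of 21 (median 0.88), against 5.50% of all measured genes. Of these 9 genes, 4 had only a bound. Ccn2, Fn1, Acta2 and Tagln, which were not on the fibroblast marker list, were still among the 9. Acta2 had 3784 with LPS+CPN+GGOH and 266 with LPS+CPN, and Tagln 1131 with LPS+CPN+GGOH and 15.0 with LPS+CPN. Ltbp2 and Smad6, also held by other pathway lists above, were counted here too. The count of 9 therefore does not set aside all genes that fibroblasts or mesothelial cells may express, and their part was not tested. With bounds taken at their bound, the 4 with the largest ratios, Ccn2 (connective tissue growth factor), Col1a2, Col3a1 and Fn1, had log2 ratios of at least 7.07, 5.28, at least 4.69 and 4.32. Id1 and Id3, inhibitors of differentiation that BMP-type SMADs induce, had signals of 386 and 3164 with LPS+CPN+GGOH, against 81.0 and 911 with LPS+CPN, and were 4.77-fold and 3.47-fold higher. Other genes that SMAD3 is known to induce were under 2-fold, among them Skil at -0.66 and Tgif1 at 0.88. Cdkn1a, which encodes the cell cycle inhibitor p21, had 6094 with LPS+CPN+GGOH and 11577 with LPS+CPN (log2 ratio -0.93) and was past 2-fold lower after division by the medians. The genes Ltbp3, Ltbp4, Nrros, Smad4, Acta2, Tagln, Id1, Id3, Skil, Tgif1 and Cdkn1a were chosen after their values were seen.

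**Figure D5:**
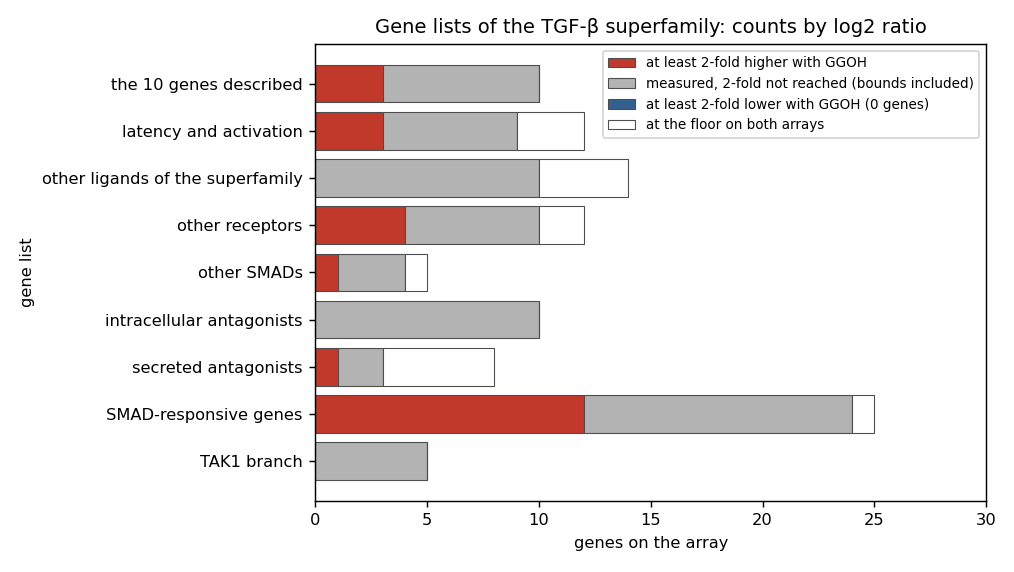
Number of genes on the array (x axis) in the 10 genes described and the 8 pathway lists, split into at least 2-fold higher with LPS+CPN+GGOH (red), measured without reaching 2-fold, bounds included (grey) and at the floor on both arrays (white). Red is largest among SMAD-responsive genes (12 of 24 measured), and no gene was at least 2-fold lower.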

How the data were processed

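One array per condition measured RNA of peritoneal macrophages, grouped by the treatment labels. The deposited values were 1 signal intensity per probe set on a linear scale, for 45101 probe sets. MAS5, a probe set summary algorithm, is named in the submitters' processing notes without a version or target. The mean of the central 96% of signals was 500.0 on each array, so the arrays had been brought to a common level. Probe sets were named from the platform annotation (1 gene symbol for 34945 of the 45037 that are not controls). The _x_at probe sets (2038) were left out of gene values. Signals were floored at the pooled 50th percentile, and log2 ratios were LPS+CPN+GGOH minus LPS+CPN. The number of arrays limits the precision, and a gene was counted at 2-fold or more, bounds included. The spread between probe sets was pooled over 4166 genes. Promoter motifs were matched as letters. The genes and lists were chosen with earlier results of these data known. Named were all members and, per list, up to 4 genes past 2-fold or otherwise up to 2 with the largest ratios. Python 3.11.15, pandas 2.3.3 and statsmodels 0.14.6 were used. The 2-fold calls were tested on simulated data, with changes set only in genes well above the floor with LPS+CPN. The list and promoter steps were not part of that test.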

Additional observations from a re-analysis of the deposited data

How the results depend on the processing

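With 9 other settings (4 scalings, a lower and a higher floor, a pseudocount in place of the floor, the median over probe sets, and _x_at probe sets kept), the count of 3 of the 10 genes at least 2-fold higher became 5 under equal macrophage markers and 0 at the 75th-percentile floor, where Tgfb2 and Tgfb3 were at the floor on both arrays. None of the 10 was 2-fold lower under these settings. Over all genes, 1658 were at least 2-fold higher and 1127 lower with the floor at the 25th percentile, and 126 higher and 88 lower with it at the 75th, against 634 and 191 with the deposited values. The lower count was 332 after division by the medians, 307 with quantile normalization and 115 under equal macrophage markers. With the floor at the 25th percentile the log2 ratio of Tgfb2 was 2.08, measured on both arrays, and that of Tgfb3 at least 3.43. Of 144 counts of pathway lists under other settings, 20 moved by over 1.5 times or to or from 0. No pathway list held a gene at least 2-fold lower with the deposited values, and most of the lower counts stayed at 0. No paired analysis was possible because each group had 1 array. Low signal limits Tgfb2 and Tgfb3, whose LPS+CPN signals lay below the floor, a percentile of all signals and not a measured background.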

Other observations

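The 7 probe sets below the floor on both arrays carried differences that the gene values leave out, in both directions. The third Tgfbr2 probe set read 3.63 with LPS+CPN+GGOH and 19.6 with LPS+CPN, a ratio of 0.185, while the measured Tgfbr2 probe sets were higher with GGOH. A dim Tgfbr1 probe set read 20.3 with LPS+CPN+GGOH and 4.83 with LPS+CPN, a ratio of 4.19, while the bright one was lower with GGOH. The dimmest Tgfb2 probe set read 16.7 with LPS+CPN+GGOH and 3.14 with LPS+CPN, a ratio of 5.32. Without a floor, the Tgfb3 readings would give a ratio of 45.3 from an LPS+CPN signal of 3.41. Ratios among such low signals are values of single readings and support no direction.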
